A study of Drosophila melanogaster with 4 samples.

Results

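The resting transcriptome of S2 cells was described from the 2 untreated libraries among the 4 RNA-seq libraries of the series. Members were chosen by the label that records the stress given to each sample, which was none for both. S2 is a *Drosophila melanogaster* line that was established from late embryos and is widely regarded as resembling macrophage-like blood cells. The labels gave a wild type genotype, growth in DMEM with 10% serum at 27 °C and 5% CO2, and harvest at 80% confluency. The other 2 libraries came from cells after heat shock and recovery and were not used. Poly(A) RNA was sequenced with reads of 50 bp. The labels numbered the untreated libraries as replicates 1 and 2 but did not say whether they came from separate cultures, so the spread between them may be technical. No second group was compared, and no test was run. Values are given for each library, replicate 1 before replicate 2, in TPM, the deposited relative level of a gene's transcripts corrected for their length. A gene was called expressed when it had at least 1 TPM in both libraries and silent when its estimated count was under 1 in both. These are bulk libraries, in which fewer cells with a transcript and less of it per cell cannot be told apart.

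A growing cell line spends much of its mRNA on making proteins, and genes for ribosomes, translation factors and the cytoskeleton are usually its most abundant messages. Tissue genes, such as those for odorant receptors or cuticle, are kept off in cells that do not use them. Transcription factors stand between these extremes, and the few that a cell makes in quantity are commonly used to place it in a lineage. In the fly, blood cells (hemocytes) comprise macrophage-like plasmatocytes, crystal cells that store prophenoloxidases, and lamellocytes that encapsulate parasites.

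The tables listed 17697 genes, and the libraries held 10221418 and 10354706 estimated counts. Of these genes, 8427 (47.6%) were expressed and 5132 (29.0%) were silent. Among 13827 protein-coding genes the shares were 55.6% expressed and 20.5% silent. A count of 0 allows up to 3 counts in a library, which was 0.330 and 0.326 TPM for the median protein-coding gene. Such floors and the intervals on shares cover counting error only. Protein-coding genes were most numerous without any count and at 10 to 100 TPM. The class of 10 to 100 TPM held 4507 of them, the class of 1 to 10 TPM only 1847, and 2773 had no count at all. The typical expressed protein-coding gene stood at 33.0 TPM.

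**Figure D1:**
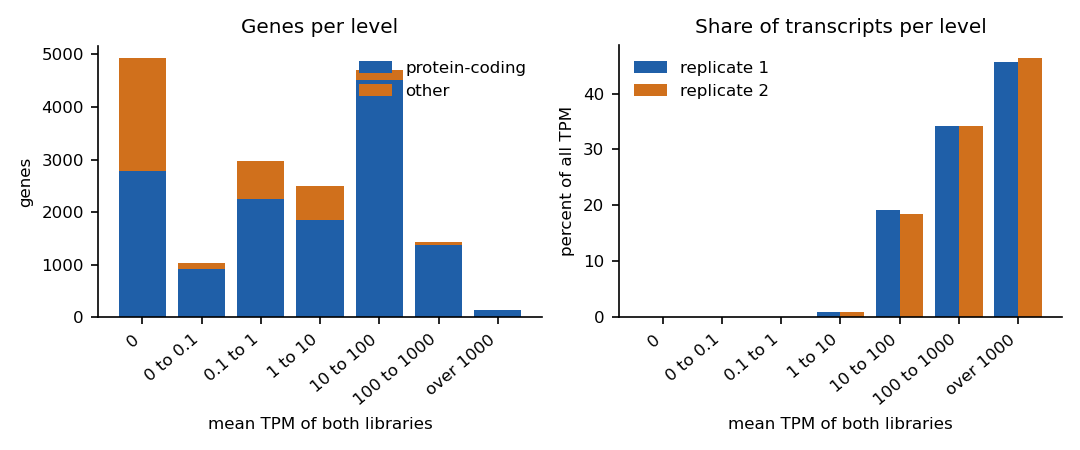
Number of genes in each class of mean TPM (left, protein-coding and other genes stacked) and percent of all TPM held by each class in replicates 1 and 2 (right). The class of 10 to 100 TPM holds 4507 protein-coding genes, and the 145 genes over 1000 TPM hold 45.6% and 46.3% of all TPM.

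Transcripts were concentrated in few genes. The 145 genes over 1000 TPM held 45.6% and 46.3% of all TPM in the libraries. The 198 and 188 most abundant genes made up 50% of it. By estimated counts, which weigh a gene by its length as well, the 100 genes with the most counts took 26.6% (95% Wilson interval 26.5 to 26.6) and 27.6% (27.5 to 27.6). Protein-coding genes over 1000 TPM had short transcripts, with a median of 960 bases, against 1991 bases at 100 to 1000 TPM and 1969 bases at 10 to 100 TPM.

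The most abundant message was eEF1alpha1, which encodes the factor that delivers aminoacyl-tRNA to the ribosome. It lies on 2R at bases 11891135 to 11895762 of release 6 and had 16961 and 18784 TPM, or 1.91% and 2.10% of estimated counts. Of the 20 most abundant genes, 15 encoded cytosolic ribosomal proteins. RpL35 led them with 14171 and 14070 TPM, and RpL28, RpLP1, RpL15 and RpL34b followed. Beside eEF1alpha1, the remaining 4 of the 20 had different tasks. Df31, a factor that binds histones and decondenses chromatin, had 7450 and 8147 TPM. The gene chic, which encodes the actin-binding protein profilin, had 5834 and 7132 TPM. The translocation factor eEF2 had 6060 and 5566 TPM, and Vha16-1, the proteolipid of the vacuolar proton pump, had 4997 and 5750 TPM. Some of these neighbours in rank differ by less than the gap between their own libraries, so their order is loose. RpL28 and RpLP1, for example, had 11882 and 13895 TPM against 11877 and 11191 TPM.

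The spread between the libraries depended on level. Across 12776 genes with a count in either library, Pearson's r of log2(TPM + 1) was 0.989 and Spearman's rho 0.962. These are correlations across genes, which are not independent replicates. For expressed genes under 10 TPM the larger library value was at the median 1.19 times the smaller, and for 95% of them it was within 2.14 times. At 100 to 1000 TPM the corresponding ratios were 1.06 and 1.18. Of 6975 genes with at least 50 counts in either library, 27 differed by over 2-fold. In 15 of these, the posterior standard deviation that the counting program gave was over 25% of the count, as happens when reads fit several genes.

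Most of the largest gaps between the libraries lay in genes with such a large posterior standard deviation. CG33502 had 69.9 and 0.15 TPM, and CG32857 had 0.20 and 70.7 TPM, both on the X, with posterior standard deviations of 110 and 103 counts for CG33502 and 116 and 118 for CG32857. The sum of the genes was thus nearly the same in both libraries while its split was reversed. Also among the 5 largest gaps in each direction were pre-mod(mdg4)-AE at 7.7 and 0 TPM, pre-mod(mdg4)-X at 22.5 and 8.4 TPM and pre-mod(mdg4)-G at 0 and 3.85 TPM, units of the trans-spliced mod(mdg4) locus. The ribosomal precursor pre-rRNA:CR45846 had 0 and 64.1 TPM. The others were Cyp12d1-p, CG31683 and the antisense RNAs asRNA:CR45806 and asRNA:CR45968. Over all expressed genes, 338 (4.01%) had a posterior standard deviation above that limit, and their single levels are uncertain.

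The protein synthesis machinery was expressed nearly in full. Of 91 cytosolic ribosomal protein genes, 85 were expressed, with a median of 2671 TPM over the list, against 0.94 TPM over all genes. Together they held 29.3% and 29.0% of all TPM. All 72 mitochondrial ribosomal protein genes were expressed at a median of 34.2 TPM. The members of this list were tightly grouped compared with the cytosolic ones, as the plot of list members shows. All 32 aminoacyl-tRNA synthetases, which charge tRNAs, were expressed, led by AspRS at 243 and 231 TPM. Of 44 initiation factor genes, 37 were expressed, and the helicase eIF4A was far ahead at 4653 and 5001 TPM. Of 9 elongation and release factors, 8 were.

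The members of these lists that were not expressed were mostly second copies. In the ribosomal list, RpL10Aa, RpL37-2 and RpS28-like had no count, RpS28a had 0 and 0.66 TPM, RpL22-like 0.29 and 0.14 TPM and RpS10a 0.61 and 2.13 TPM. The initiation factor copies eIF3d2, eIF3g2, eIF4E4, eIF4E5 and eIF4E7 had no count, and eIF3f2 and eIF4H2 stayed at or below 0.17 TPM. Several such copies are known as testis genes in the fly. The same held in the proteasome, where 36 of 48 genes were expressed. Each of the 12 that were not carried an R or T suffix, which marks a duplicate of a general subunit, and the highest of them was Prosbeta5R2 at 0.17 and 0.23 TPM. An exception was Prosalpha1R with 359 and 319 TPM beside Prosalpha1 with 116 and 115 TPM. Their posterior standard deviations were 130 and 155 counts each, so the split between these near-identical genes is uncertain, whereas their sum was 475 and 434 TPM.

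Energy and pH genes showed a like division. Of 84 nuclear genes for oxidative phosphorylation, 65 were expressed, with ATPsynCF6 at 787 and 892 TPM and ATPsynC at 831 and 771 TPM in front. The 19 others included 18 duplicates whose names end in L, with or without a number, and ND-B8. The highest of these by mean was COX6AL at 1.04 and 0.34 TPM. Of 29 genes of the vacuolar proton pump, 16 (55.2%) were expressed, close to the 55.6% of all protein-coding genes. After Vha16-1 came Vha26 at 950 and 923 TPM, Vha55, VhaM9.7-b and Vha13. Its silent members, among them Vha16-2, Vha16-3, Vha100-3 and VhaM9.7-a, are alternative versions of the same subunits. Glycolysis was expressed for 12 of 14 genes, led by the aldolase Ald1 at 950 and 916 TPM. Hex-C, a hexokinase known from fat body, had 0.47 and 0.70 TPM, and Pglym87 had no count. All 8 subunits of the chaperonin CCT, which folds actin and tubulin, were expressed at a median of 342 TPM.

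**Figure D2:**
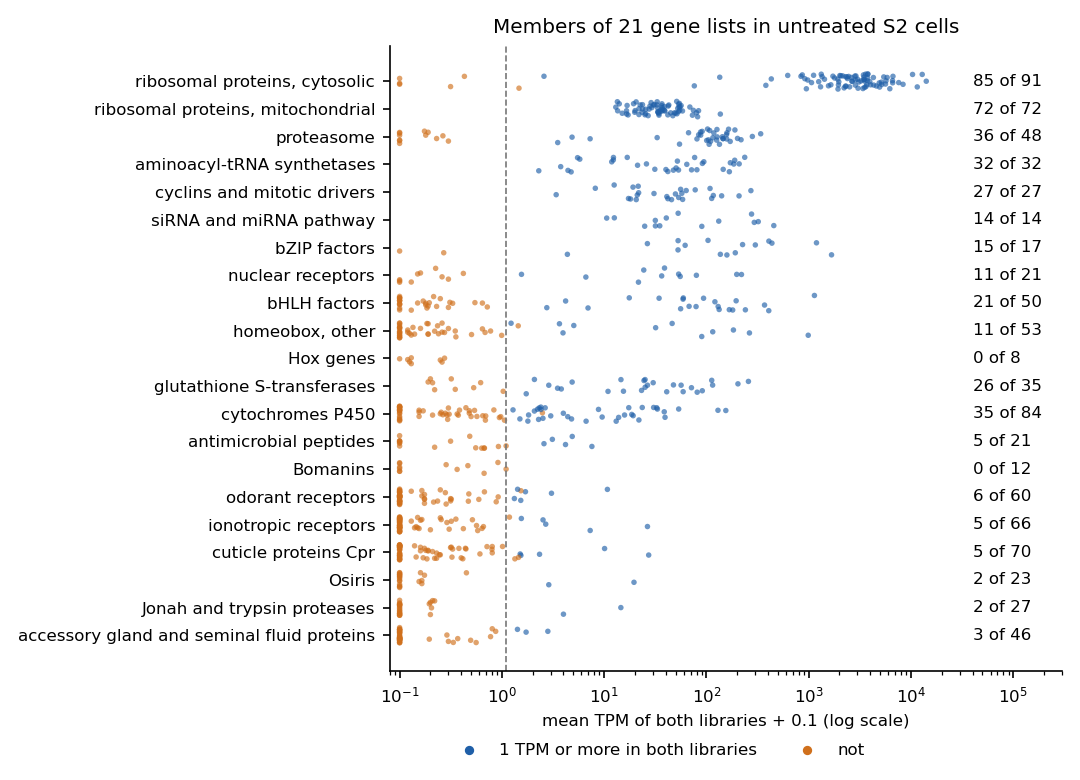
Mean TPM over both libraries plus 0.1, on a log axis, for each member of 21 gene lists. Points are blue for genes with at least 1 TPM in both libraries and orange for the rest, the dashed line marks 1 TPM, and the counts of expressed members are at the right. Core machinery lies far to the right of the line, as for 85 of 91 cytosolic ribosomal proteins, and tissue families lie at its left, as for 6 of 60 odorant receptors.

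Within families of near-equal proteins a single copy usually carried most of the message. Cytoskeletal actin came from Act5C at 3676 and 3678 TPM and Act42A at 331 and 319 TPM. The muscle actin Act57B was expressed at 27.8 and 29.9 TPM, while Act79B, Act87E and Act88F stayed below 1 TPM in both libraries. Tubulin came from betaTub56D (1309 and 1289 TPM) and alphaTub84B (1123 and 1163 TPM). The testis form betaTub85D had 0.29 and 0 TPM and the maternal form alphaTub67C 0.98 and 0.43 TPM. For centrosomal gamma-tubulin both gammaTub23C (41.3 and 34.7 TPM) and the maternal gammaTub37C (18.6 ± 0.785 TPM, SD, n = 2 libraries) were expressed.

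Several copy pairs were more one-sided. The gene eEF1alpha2, known from neurons and muscle, had 0.34 and 0.66 TPM beside the abundant eEF1alpha1. Somatic Cyt-c-p, an electron carrier, had 416 and 443 TPM, and testis Cyt-c-d had no count, which allows up to 0.680 and 0.673 TPM. The carrier sesB, which exchanges ADP and ATP across the inner mitochondrial membrane, had 878 and 882 TPM beside Ant2 at 4.95 and 4.19 TPM. Lam, the general B-type lamin of the nuclear envelope, had 238 and 257 TPM, and LamC, the A-type lamin of differentiated cells, had 6.26 and 4.74 TPM. Pyruvate kinase came from PyK at 295 and 278 TPM, against 5.62 and 5.12 TPM for CG7069, the next of its 6 genes. The exception was glyceraldehyde-3-phosphate dehydrogenase, for which Gapdh2 (842 and 807 TPM) and Gapdh1 (449 and 425 TPM) were both abundant.

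All 27 genes on the list of cyclins and mitotic drivers were expressed. The replication licensing inhibitor geminin was highest with 272 and 272 TPM. Next on the list was CycT, a cyclin that acts in transcription elongation rather than in the cell cycle. Then came mad2, the mitotic cyclin CycA at 121 and 113 TPM and the kinase polo at 112 and 113 TPM. The lowest was twe, the meiotic Cdc25 phosphatase, at 3.70 and 2.89 TPM, whereas the mitotic one, stg, had 63.3 and 63.4 TPM.

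Histone messages were divided by kind. Replication-dependent histone mRNAs end in a stem-loop rather than a poly(A) tail, and poly(A) RNA was sequenced, so their level here does not measure their transcription. Of 111 such genes, 2 were expressed, His4:CG33907 at 19.6 and 16.0 TPM and His2B:CG33868 at 3.16 and 4.22 TPM. Their repeats are nearly identical and share reads. The replacement variants, which carry poly(A) tails, were abundant. His3.3B had 1716 and 1614 TPM, His4r 1339 and 1381 TPM, His2Av 556 and 566 TPM and His3.3A 145 and 142 TPM. The centromeric variant cid had 15.4 and 15.6 TPM and the embryonic linker BigH1 0.28 and 0.69 TPM.

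The most abundant chaperones were constitutive ones. Hsc70-4, the cytosolic cognate of Hsp70, had 4976 and 4817 TPM, and Hsc70-3, its counterpart in the endoplasmic reticulum, had 3017 and 3094 TPM. Hsp83, the fly Hsp90, had 3099 and 2824 TPM. The mitochondrial Hsc70-5 had 416 and 381 TPM, Hsp110 531 and 496 TPM, the endoplasmic Gp93 700 and 667 TPM and the mitochondrial Trap1 169 and 161 TPM. Inducible members were present without stress. Summed over its 6 near-identical copies Hsp70 had 507 and 529 TPM, of which Hsp70Bb took 258 and 263 TPM, Hsp70Ab 215 and 237 TPM, Hsp70Bc 18.6 and 16.3 TPM, Hsp70Ba 8.63 and 9.67 TPM, Hsp70Bbb 6.95 and 3.26 TPM and Hsp70Aa none. That split rests on shared reads. Hsp68 had 92.7 and 98.2 TPM. Of the small heat shock proteins, Hsp26 had 184 and 205 TPM, Hsp27 99.9 and 102 TPM, Hsp23 97.1 and 83.7 TPM, Hsp22 53.1 and 62.0 TPM and l(2)efl 7.68 and 9.04 TPM. Hsp67Ba had 1.32 and 2.21 TPM, CG4456 1.36 and 0.45 TPM and Hsp67Bc 0.55 and 1.08 TPM. Hsc70-1 (0.16 and 0.08 TPM) and Hsc70-2 (no count) were the cognate members not expressed.

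Of 14 plasmatocyte markers, 8 (57.1%) were expressed, close to the 55.6% of all protein-coding genes, so the count itself says nothing particular about the list. The scavenger receptor crq had 214 and 213 TPM, and srp, the GATA factor that specifies hemocytes, 96.8 and 108 TPM. Dscam1, an immunoglobulin receptor, had 69.5 and 74.4 TPM. The matrix genes SPARC (44.5 and 45.3 TPM), Ppn (45.7 and 40.6 TPM), Col4a1 (28.7 and 25.5 TPM) and vkg (15.3 and 14.0 TPM) followed, and the engulfment receptor drpr was lowest of the 8 with 2.82 and 2.68 TPM. The remaining 6 include the markers most often used to stain plasmatocytes. Pxn had 1.56 and 0.99 TPM, eater 0.42 and 0.21 TPM, Hml 0.32 and 0.27 TPM and Sr-CI 0.17 and 0.08 TPM. NimC1 and He had no count, which allows up to 0.221 and 0.219 TPM for NimC1 and 0.908 and 0.899 TPM for He. In these libraries the plasmatocyte list was thus represented by srp, crq and matrix genes, and not by Hml, eater or NimC1.

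Markers of the other blood cell types were mixed. Among 4 crystal cell genes only PPO2, a prophenoloxidase, was expressed, at 12.8 and 13.3 TPM. The Runx factor lz, which specifies crystal cells, had 0 and 0.10 TPM, PPO1 0 and 0.15 TPM and peb 0.44 and 0.38 TPM. Of 8 lamellocyte genes, 5 (62.5%) were expressed, against 55.6% of all protein-coding genes. They were the integrin mys (282 and 288 TPM), kuz (90.1 and 87.7 TPM), cher (85.2 and 83.6 TPM), Treh (55.8 and 57.4 TPM) and PPO3 (27.1 and 27.1 TPM). Of these, mys, kuz and cher also act in many other tissues, and the defining surface marker atilla had no count. ItgaPS4 and Itgbn had 0.68 and 0.61 TPM and 0.62 and 0.61 TPM. Among 7 genes of progenitors and the lymph gland, dome, Tep4, upd3 and shg were expressed, with dome at 106 and 104 TPM and Tep4 at 40.3 and 34.6 TPM. The niche factors Antp (0.10 and 0.25 TPM) and kn (0 and 0.06 TPM) and the Notch target E(spl)m4-BFM (no count) were not.

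Of 14 hemocyte transcription factors, 9 (64.3%) were expressed, against 55.6% of all protein-coding genes. The factors were pnt (512 and 566 TPM), kay (439 and 435 TPM), Stat92E (271 and 257 TPM), Jra (189 and 194 TPM), zfh1 (178 and 189 TPM), Rel (178 and 175 TPM), ush (135 and 150 TPM), srp and Mef2 (41.0 and 39.5 TPM). The gene ush encodes the partner through which srp restrains crystal cell fate. The glial and plasmatocyte fate factors gcm (0.09 and 0 TPM) and gcm2 (no count) were not expressed, nor were lz, kn and bap.

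Lists for other tissues differed in how many members were expressed. None of 11 midgut genes was expressed, and 8 had no count. The list runs over the amylases Amy-p and Amy-d, LManVI, Mal-A1, the proteases Jon65Ai, Jon99Ciii, alphaTry and betaTry, Npc2d, nub and lab, of which Amy-p was highest in any library at 0.22 TPM. Of 12 fat body genes, LpR2 (46.4 and 53.1 TPM), a lipophorin receptor, and Ilp6 (44.8 and 46.5 TPM), an insulin-like peptide, were expressed. The yolk proteins Yp1, Yp2 and Yp3, the larval serum proteins Lsp1alpha, Lsp1beta, Lsp1gamma and Lsp2, Fbp1, Fbp2 and apolpp were all below 1 TPM in both libraries. In the epidermis and trachea list btl (2.14 and 1.42 TPM) and ple (1.50 and 1.54 TPM) passed, and grh, Cht2, Ddc, trh, kkv, sha, dpy and vvl did not.

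Muscle genes were split by protein. Tm1, a tropomyosin gene with non-muscle forms, had 814 and 891 TPM, Mlc2 5.04 and 5.44 TPM and sls 3.80 and 3.46 TPM, and Mef2 and Act57B were given above. Myosin heavy chain Mhc had 0.41 and 0.31 TPM. Mlc1, Prm, up, bt, TpnC73F, Zasp66 and Act88F were likewise below 1 TPM, and wupA and Tm2 had no count. Among neuron markers Syx1A (335 and 383 TPM) and Csp (276 and 273 TPM), which serve vesicle fusion, and nrv3 (30.1 and 31.2 TPM) were expressed, as was the RNA-binding protein elav (27.4 and 30.6 TPM). The channel para, futsch and brp lay between 1 and 5 TPM. Genes that define a transmitter type were not expressed, with ChAT at 0.55 and 0.26 TPM, Gad1 at 0 and 0.06 TPM, and no count for VAChT and VGlut. Syt1 and nSyb stood below 1 TPM and fne and Rbp9 near it. Of glia genes loco, nrv2, moody and Gs2 were expressed, and the glial fate gene repo had 0.06 and 0.11 TPM, with Eaat1, wrapper and alrm below 1 TPM too. Of 14 eye genes, the channel trpl alone passed, at 34.0 and 31.1 TPM. Of the others, ey, so, toy, eya, gl, ninaC, ninaE, trp and the rhodopsins Rh2, Rh4, Rh5 and Rh6 stayed below 1 TPM in both libraries, and Rh3 had 1.27 and 0.50 TPM.

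Of 14 germline genes, 11 (78.6%) were expressed, against 55.6% of all protein-coding genes. The other lineage lists ran from 0% for midgut to 64.3% for hemocyte transcription factors, with 46.7% for neuron and 50.0% for glia. Of the expressed germline genes, krimp, AGO3, aub, spn-E, zuc and piwi are also on the piRNA list below, and Sxl is also on the sex list. A further listed germline name was not analysed here. The expressed ones included tud (209 and 195 TPM), Sxl (188 and 208 TPM), krimp, AGO3 and aub. The differentiation factor bam had 9.07 and 9.72 TPM, its partner bgcn 13.4 and 11.8 TPM and osk 2.48 and 1.90 TPM. The germline helicase vas had 0.08 and 0.30 TPM, otu 0.12 and 0.11 TPM and qin 0.11 and 0.11 TPM. In the testis list alphaTub84D, the meiotic arrest gene mia and fzo passed, with mia at 16.76 and 15.35 TPM and fzo at 2.70 and 2.46 TPM. The other listed meiotic arrest genes, can, sa, tomb and aly, and the sperm genes ocn, dj, Mst87F, Mst98Ca and janB did not.

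Small RNA pathways were present to different degrees. All 14 genes of the siRNA and miRNA pathways were expressed, against 55.6% of all protein-coding genes. The slicers AGO2 (451 and 461 TPM) and AGO1 (316 and 326 TPM) led, followed by Fmr1, vig, gw at 135 and 129 TPM and r2d2. The nucleases Dcr-2 (42.7 and 38.2 TPM), Dcr-1 (34.2 and 29.0 TPM) and drosha (31.4 and 31.7 TPM) were lower, as were loqs, Trax, trsn, pasha and Hen1. In the piRNA pathway, which silences transposons in gonads, 18 of 21 genes (85.7%) were expressed, against the same 55.6%. The cytoplasmic amplification genes krimp (160 and 147 TPM), AGO3 (116 and 114 TPM) and aub (70.4 and 62.8 TPM) were high. The nuclear cluster factor del had 102 and 113 TPM, mael 94.1 and 101 TPM and papi 79.5 and 71.2 TPM. The expressed list went on with squ, armi, vret, spn-E, SoYb, tej, shu, zuc, cuff, BoYb and fs(1)Yb, which lay between 4 and 46 TPM. By contrast piwi, the nuclear effector, had 1.29 and 1.10 TPM, and rhi, the chromodomain protein that works with del and cuff, had 0.11 and 0.22 TPM.

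Sex-specific genes were of both kinds. The male-specific lethal complex raises X transcription in males, and its RNAs roX1 (34.2 and 36.0 TPM) and roX2 (53.8 and 52.4 TPM) and its limiting subunit msl-2 (20.7 and 19.3 TPM) were expressed. The other subunits were as well, with mof at 130 and 134 TPM, msl-1 at 68.7 and 72.3 TPM, msl-3 at 54.7 and 47.4 TPM and mle at 34.3 and 31.6 TPM, and the targeting factor Clamp had 229 and 212 TPM. The female determinant Sxl had 188 and 208 TPM, tra 46.0 and 50.9 TPM and tra2 49.8 and 45.4 TPM, with snf, vir and fru also expressed. Gene-level values do not tell their male and female splice forms apart. The final switch dsx had 0.70 and 1.15 TPM. All 11 listed genes of the Y had no count, which include the dynein fertility factors kl-2, kl-3 and kl-5, and no protein-coding gene of the Y among 23 was expressed.

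Of 282 genes in the joined transcription factor lists, 131 (46.5%) were expressed, against 55.6% of all protein-coding genes, and 51 had at least 100 TPM. The most abundant was crc, the fly ATF4 of the amino acid and stress response, on 2L at bases 21310866 to 21319527 with 1663 and 1683 TPM. Its exons overlap those of CG46314 over 73.5% of their length, and CG46314 was given 17.4 and 17.2 TPM of the reads in common. The chromatin cofactor lolal had 1252 and 1484 TPM. Xbp1, the unfolded protein response factor, had 1182 and 1202 TPM, and SREBP, which drives fatty acid synthesis genes, had 1180 and 1097 TPM.

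A regulator with a tissue role stood next. The gene ap, a LIM-homeodomain factor known as the selector of dorsal wing identity and of some neurons, had 1006 and 973 TPM from 19130 and 18845 counts. E2f1, the S phase activator, had 614 and 700 TPM, and the insulator protein mod(mdg4) 592 and 607 TPM. After pnt and kay came Pdp1 (394 and 423 TPM), hry (384 and 431 TPM), emc (367 and 373 TPM), sd (302 and 318 TPM) and CrebA (289 and 313 TPM), with Stat92E as the fifteenth. The pointed ETS factor and Fos (kay) act at the end of Ras and JNK signalling, sd binds DNA for the growth regulator yki, and CrebA serves the secretory machinery.

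**Figure D3:**
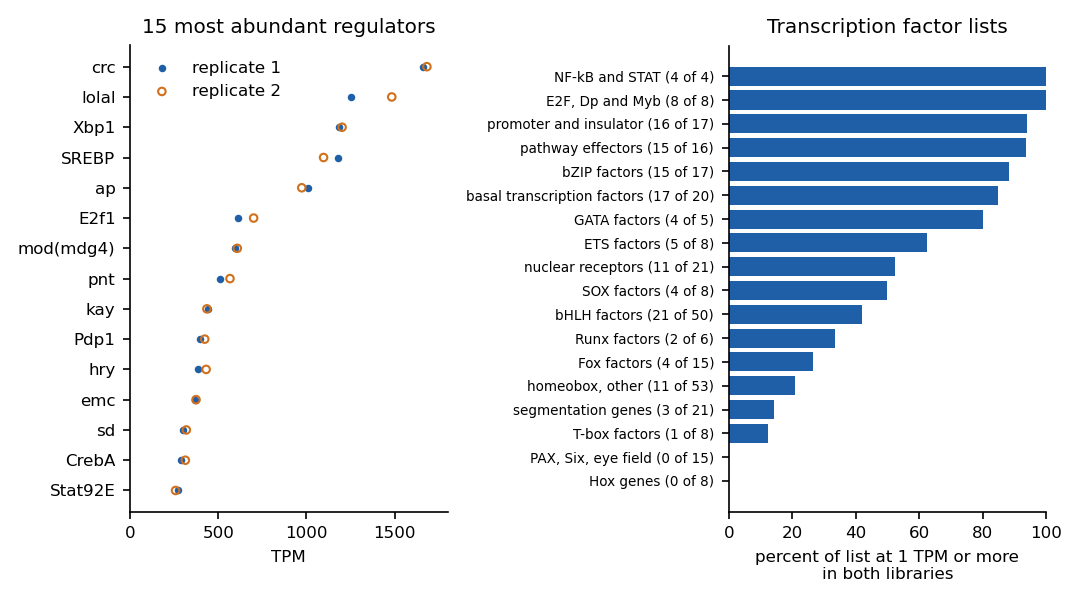
Left, TPM in replicate 1 (filled) and replicate 2 (open) of the 15 transcription factor genes with the highest mean. Right, percent of each transcription factor list with at least 1 TPM in both libraries, with counts in brackets. The factor crc leads at 1663 and 1683 TPM, and the lists run down to 0 of 8 Hox genes.

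Families of general regulators were complete or nearly so. All 8 genes of the E2F, Dp and Myb list and all 4 NF-kB and STAT genes were expressed. The immune factors Rel, dl (99.2 and 95.5 TPM) and Dif (37.1 and 38.2 TPM) were present without challenge. In the bZIP list 15 of 17 were expressed, and slbo (0.21 and 0.13 TPM) and tj (no count), both known from gonad cells, were not. Of 17 promoter and insulator proteins, 16 were expressed, and the missing member was zld at 0.16 and 0.22 TPM, the activator of the zygotic genome in early embryos. Of 20 basal factors, 17 were expressed, and the testis TAF genes can, sa and nht were those that were not. The testis gene mia of the same list was expressed, at 16.76 and 15.35 TPM.

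Patterning families were the opposite. No Hox gene was expressed, with Antp at 0.10 and 0.25 TPM, Abd-B at 0.16 and 0.16 TPM and abd-A at 0.13 and 0.17 TPM as the highest, lab, pb, Dfd and Scr at or below 0.06 TPM and Ubx without a count. None of 15 PAX, SIX-class and eye-field genes passed, and ey was highest with 0.72 and 0.90 TPM. Of 21 segmentation genes, hry, gt (3.75 and 4.79 TPM) and run (1.45 and 1.44 TPM) passed. Of 8 T-box genes only bi did, with 27.8 and 29.0 TPM. Of 53 further homeobox genes, 11 passed. Beside ap these were led by exex (253 and 274 TPM), known as a motor neuron factor, zfh1, the Hox cofactor exd (117 and 114 TPM) and ct (84.2 and 95.7 TPM). The cofactor exd was thus expressed without any Hox gene, and its partner hth had 0.07 and 0.28 TPM.

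In other families a few members were high and the remainder near 0. Of the GATA factors pnr had 164 and 161 TPM, GATAd 114 and 113 TPM and srp 96.8 and 108 TPM, whereas the gut factor GATAe had 2.13 and 1.97 TPM and grn 0.05 and 0 TPM. The gene pnr is best known from the dorsal epidermis and heart. In the Runx list the partner subunit Bgb had 34.2 and 32.2 TPM and run 1.45 and 1.44 TPM, but RunxA, RunxB, lz and the other partner Bro were below 1 TPM. The ETS list had 5 of 8 members (62.5%) expressed, the SOX list 4 of 8 (50.0%) and the Fox list 4 of 15 (26.7%). Over all protein-coding genes the share was 55.6%. Their highest members beside pnt were Sox21a (33.3 and 32.2 TPM) and FoxK (241 and 285 TPM). The bHLH list had 21 of 50 (42.0%) expressed, led by SREBP, hry, emc, crp (235 and 246 TPM) and Max (190 and 201 TPM), the dimer partner of Myc.

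Nuclear receptors, which bind hormones and lipids, had 11 of 21 members (52.4%) expressed, close to the 55.6% of all protein-coding genes. Hnf4, a regulator of lipid use, had 224 and 216 TPM, and Eip75B, an early ecdysone gene, 195 and 201 TPM. Both partners of the ecdysone receptor were present, EcR at 54.7 and 52.2 TPM and usp at 35.5 and 37.4 TPM. Hr78 (83.5 and 75.9 TPM), ftz-f1 (57.8 and 52.9 TPM), Hr39 (40.3 and 37.3 TPM), ERR (25.2 and 23.4 TPM), Hr96 (21.8 and 21.3 TPM), Eip78C (6.65 and 6.40 TPM) and Hr51 (1.42 and 1.49 TPM) completed the group. Hr3, Hr4, Hr38, kni, knrl, eg and svp were below 1 TPM, and tll, dsf and Hr83 had no count. Of the further ecdysone genes MsrA, Cth, Eip74EF, br and Cyp18a1 were expressed and Eip93F was not (0.91 and 0.76 TPM). The enzymes that make ecdysone were not expressed either, with shd, sad, spok and dib all below 1 TPM.

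Signalling components differed by role, by a grouping that was made after the values were known. Of 56 intracellular components, 54 (96.4%) were expressed, at a median of 56.2 TPM. Of 29 receptors, 21 (72.4%) were, at a median of 8.95 TPM, and of 38 ligands, 19 (50.0%), at a median of 1.50 TPM, against 55.6% and 3.53 TPM for all protein-coding genes. The share of ligands was thus near that of all genes. The intracellular exceptions were ci, the Hedgehog transcription factor, and stumps, the adaptor of FGF receptors.

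**Figure D4:**
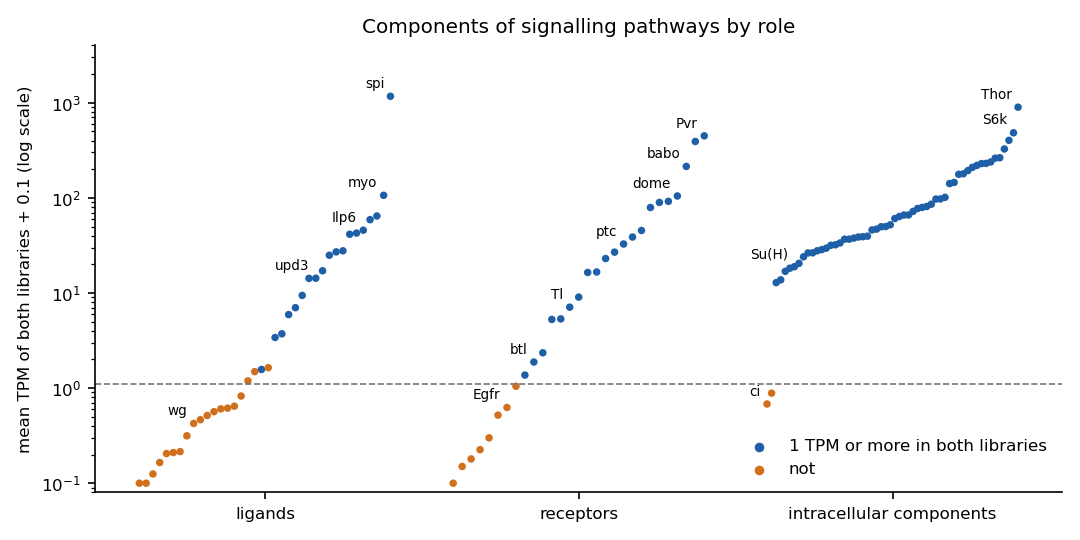
Mean TPM over both libraries plus 0.1, on a log axis, for 38 ligands, 29 receptors and 56 intracellular components of signalling pathways, ranked within each role. Blue points had at least 1 TPM in both libraries, orange points did not, and the dashed line marks 1 TPM. Intracellular components lie above the line except for ci and stumps, and ligands spread from 0 to spi above 1000 TPM.

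In several pathways a listed receptor or ligand was not expressed. In the Notch pathway the receptor N had 0.37 and 0.47 TPM and its ligand Ser 0.28 and 0.15 TPM, and the other listed ligand was not analysed here. The processing and nuclear machinery was in place, with mam (138 and 152 TPM), H (133 and 149 TPM), Nct, Psn, pen-2 and aph-1 of the gamma-secretase, kuz, O-fut1, mib1, neur, fng and Su(H) at 18.4 and 19.2 TPM. In the EGF and FGF pathways the ligand spi had 1108 and 1232 TPM and the transducers drk (378 and 427 TPM), Ras85D (268 and 255 TPM) and rl (208 and 179 TPM) were high. The receptors were low, Egfr at 0.78 and 0.27 TPM, btl at 2.14 and 1.42 TPM and htl at 0.10 and 0.15 TPM. The feedback inhibitor aos had 126 and 113 TPM. Further down the list were S, bnl, grk, Sos, Raf, Dsor1, Krn, rho, pyr and vn, all between 5 and 75 TPM, and ru, ths and stumps were not expressed.

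In the Hedgehog pathway the receptor ptc (33.1 and 32.2 TPM), the coreceptors ihog and boi and the transducers smo, cos, fu and Su(fu) were expressed along with disp and rasp. The ligand hh (0.37 and 0.66 TPM) and the effector ci (0.60 and 0.56 TPM) were not. Of the Wnt ligands, Wnt5 (43.1 and 39.6 TPM) and Wnt6 (9.38 and 9.28 TPM) were expressed, and wg (0.30 and 0.35 TPM), Wnt2, Wnt4, Wnt10 and wntD were not. The main Frizzled receptor was fz2 with 38.9 and 38.4 TPM, ahead of fz, fz4 and the coreceptor arr, and fz3 had 0.08 and 0.08 TPM. The kinase sgg (239 and 237 TPM) and the beta-catenin arm (182 and 176 TPM) led the intracellular part, in which nkd, wls, Axn, dsh, pan, Apc, Apc2 and por were expressed as well.

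Other receptors were abundant. Pvr, the PDGF and VEGF receptor of hemocytes, had 456 and 442 TPM, and of its ligands Pvf2 had 23.7 and 26.0 TPM, Pvf3 1.62 and 1.32 TPM and Pvf1 0.62 and 1.56 TPM. Its transducers mbc and Ced-12 were expressed. The insulin receptor InR had 386 and 397 TPM, and Thor, the translation inhibitor 4E-BP, had 868 and 929 TPM. S6k (466 and 500 TPM), Rheb (308 and 345 TPM), Pi3K92E and Akt followed, with Pdk1, Pi3K21B, chico, foxo, Tsc1, gig and raptor lower. Ilp6 was the expressed ligand, and Ilp1, Ilp2, Ilp3, Ilp4, Ilp5, Ilp7 and Ilp8 were not.

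On the list of TGF-beta and BMP pathways the highest levels were those of 3 activin branch genes. They were the receptor babo at 211 and 217 TPM, its effector Smox at 236 and 225 TPM and the ligand myo at 107 and 106 TPM. The receptor put, which both branches share, had 92.7 and 86.3 TPM. The BMP genes of this list were below these activin genes, with sax (91.5 and 92.2 TPM), tkv (47.7 and 42.9 TPM), Mad (40.7 and 37.2 TPM), gbb, Dad and dpp (3.87 and 3.37 TPM). The BMP factor shn, counted among the transcription factors, had 129 and 132 TPM, above myo. The ligands mav (16.85 and 17.2 TPM) and daw (14.83 and 13.45 TPM) were expressed below sax, tkv and Mad, and wit, scw and Actbeta were not expressed. The JAK/STAT receptor dome had 106 and 104 TPM, the kinase hop 51.0 and 48.6 TPM and the inhibitor Socs36E 223 and 235 TPM. Its ligands upd3 (12.9 and 15.5 TPM) and upd2 (3.72 and 2.89 TPM) were expressed, and upd1 (0.21 and 0 TPM) and the short receptor et (0.81 and 1.08 TPM) were not.

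The immune pathways were present upstream and quiet downstream, where the share expressed over all protein-coding genes was 55.6%. In the Imd pathway 13 of 14 genes were expressed, from the receptor PGRP-LC (23.8 and 29.7 TPM) and PGRP-LE over imd (34.8 and 28.5 TPM), Fadd, Dredd, Tak1, Tab2, Diap2, key and IKKbeta to Rel, with pirk and PGRP-LF. The amidase PGRP-LB had 0.73 and 0.28 TPM. In the Toll pathway 14 of 16 (87.5%) were, with the ligand spz at 61.9 and 67.0 TPM, Myd88 at 62.7 and 69.3 TPM, tub, pll, cact, dl, Dif, GNBP1, GNBP3 and PGRP-SA. Among its receptors Tollo (76.0 and 82.2 TPM) exceeded Tl itself (7.55 and 6.43 TPM), Toll-7 and Toll-9 lay between 1 and 3 TPM, and Toll-6 and Toll-4 were at 0.07 TPM or less. Of 21 antimicrobial peptide genes, the outputs of these pathways, 5 (23.8%) passed, with Dro highest at 8.91 and 6.07 TPM, then BaraA1, CecA1, Drs and CecB. These levels rest on few counts, 16 and 11 for Dro, 5 and 9 for CecA1, 7 and 5 for Drs and 5 and 6 for CecB. BaraA1, with 26.0 and 22.1 counts, had posterior standard deviations of 6.75 and 6.0 and shares 23.5% of its exon bases with CG30059. None of 12 Bomanins and none of 8 Turandot genes was expressed.

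Of 21 phagocytosis receptors, 5 were expressed, namely crq, pes (79.1 and 77.0 TPM), Dscam1, PGRP-LC and drpr. The Nimrod family was not, with NimC4 at 0.55 and 0.14 TPM, NimC3 and NimB2 below 0.5 TPM, NimA at 0.08 and 0 TPM and no count for NimB1, NimB3, NimB4, NimB5, NimC1 and NimC2. The class C scavenger receptors were likewise low, with Sr-CIV at 0.38 and 0.25 TPM, Sr-CI as above and Sr-CII and Sr-CIII without a count, and PGRP-SC1a had none either. Among the prophenoloxidase and clip protease genes the proteases grass (86.9 and 87.1 TPM) and Sp7 (83.0 and 84.5 TPM) stood above PPO3 and PPO2. In the basement membrane list 11 of 14 genes were expressed, and laminin alpha, LanA, was highest at 276 and 259 TPM, with PH4alphaEFB, LanB2, LanB1 and Plod next. Pxn, Ndg and Loxl2 were not.

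Sensory, cuticle, digestive and reproductive families were at the bottom of the range. Of 550 genes in these lists, 50 (9.09%) were expressed and 319 (58.0%) silent, against 55.6% and 20.5% of all protein-coding genes. Expressed members numbered 6 of 60 odorant receptors, 9 of 60 gustatory receptors, 5 of 66 ionotropic receptors, 4 of 51 odorant-binding proteins, 2 of 29 pickpocket channels and 0 of 7 rhodopsins. They numbered 5 of 70 Cpr cuticle proteins, 2 of 23 Osiris genes, 2 of 27 Jonah and trypsin proteases and 3 of 46 seminal fluid genes. No Ste repeat of 12 passed.

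Only 7 of the 550 reached 10 TPM in both libraries. Sgs1, a salivary glue gene on 2L at bases 4937409 to 4941423, had 79.1 and 110 TPM from 1806 and 2545 counts. Cpr11A had 27.8 and 26.5 TPM, Ir76a 29.7 and 23.1 TPM, ppk29 21.9 and 21.5 TPM, Osi19 20.7 and 18.3 TPM, iotaTry 15.8 and 13.2 TPM and TwdlW 14.3 and 11.6 TPM. Of the 50 expressed members, 13 (26.0%) share exon bases with another expressed gene on either strand. Ir76a shares 14.1% of its exon bases with CG14102 and ppk29 6.7% with sei, and Or43b, at 12.3 and 9.07 TPM, shares 40.7% with Cul1, which averaged 184 TPM. Sgs1, Cpr11A, Osi19, iotaTry and TwdlW share none. The part of such overlap in these levels was not tested.

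Detoxification families lay on either side of the 55.6% of all protein-coding genes. Of 35 glutathione S-transferases, 26 (74.3%) were expressed, led by GstT4 (264 and 251 TPM), GstE6 (218 and 189 TPM) and GstD1 (111 and 119 TPM). Of 84 cytochromes P450, 35 (41.7%) were, led by Cyp6a20 (151 and 159 TPM) and Cyp6a17 (146 and 114 TPM). Of 35 UDP-glycosyltransferases, 7 (20%) were, with Ugt316A1 at 41.5 and 39.8 TPM in front.

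Genes annotated as ncRNA were expressed less often than protein-coding genes. Of 2739 such genes, 515 (18.8%) passed, against 47.6% of all genes and 55.6% of protein-coding genes. Their median when expressed was 5.29 TPM. Of 1896 long noncoding RNAs 306 (16.1%) passed, and of 490 antisense RNAs 174 (35.5%). Exon overlap with other genes was not computed for these lists, and whether counting used the strand is not given. The part of reads from overlapping genes in these counts was not tested. The highest noncoding gene was lncRNA:CR34335 on the X at bases 3545750 to 3546110, with 4510 and 3409 TPM. Next came lncRNA:CR40469 (1391 and 1639 TPM), which has the same posterior standard deviation in each library, 40.8 and 37.6 counts, as lncRNA:CR34335. The 18SrRNA:CR45838 had 1012 and 1099 TPM, although poly(A) RNA was selected. The pseudogene CR43080 had 630 and 756 TPM and lncRNA:CR42862 571 and 552 TPM. The heat shock RNA Hsromega, named after its values were seen, had 351 and 371 TPM.

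Expression varied modestly between chromosome arms. Of protein-coding genes, 51.0% were expressed on 2L, 56.4% on 2R, 55.2% on 3L, 55.4% on 3R and 61.1% on the X. Those of 2L include a run of 96 neighbouring histone repeat genes, none expressed, whose mRNAs lack poly(A) tails. Their part in the values for 2L was not tested. The small chromosome 4, which is largely heterochromatic, had the highest share, 72.2% of 79 genes, at a median of 28.8 TPM over all its genes, against 1.45 to 6.45 TPM on the larger arms.

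The longest runs of neighbouring protein-coding genes in 1 state are given as a description and were picked after their values were seen. Beside the histone repeats, the longest run of neighbouring protein-coding genes with none expressed held 45 genes over 110 kb of 3L (bases 16237723 to 16347620), from l(3)72Dr to CG33257, and 35 of them were silent. A run of 39 genes on 2R (bases 23079380 to 23352144) held gustatory receptors of the Gr59 group and the duplicates RpL37-2, RpL22-like and Prosbeta5R1. A run of 34 genes on 3R (bases 6010573 to 6331809) held most Osiris genes. The Antennapedia complex lay in a run of 24 genes over 403 kb of 3R (bases 6661427 to 7064370), from lab to Mst84B, which included pb, zen, bcd, Dfd, Scr, ftz and Antp with the Ccp84A cuticle genes. Of these 24 genes, 9 were silent, and the highest averaged 0.62 TPM. The longest run of expressed genes held 34 genes over 315 kb of 3L (bases 528337 to 843701), from CG34269 to Gr61a, with emc inside it. The run from Polr1B to Pph13 on 2L (bases 404285 to 579549) held 30 expressed genes, among them RpLP1, ush and the plasmatocyte receptor crq.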

How the data were processed

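Poly(A) RNA of untreated S2 cells was sequenced in 2 libraries. The authors deposited per-gene tables with estimated counts (expected counts, which need not be whole), TPM and FPKM, beside gene lengths and, for each count, its posterior standard deviation. Per the labels, the submitters' processing notes name Trimmomatic 0.36, STAR 2.6.1c and RSEM 1.3.1 and the BDGP6 assembly. RSEM divides reads that fit several genes among them, and whether counting used the strand is not given in the sources used here. Symbols, gene classes and coordinates came from Ensembl annotation 115 of the same assembly, which matched all but 127 of 17697 genes. The 2 libraries held 10221418 and 10354706 estimated counts.

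Expressed, silent and list counts were computed in Python 3 with pandas from the deposited TPM and estimated counts, without a test, since 1 group was described. The code for the calls was run on simulated counts, as a check of the code only. Genes made without expression or far above the limit are called correctly by construction. No reads shared between genes were simulated, so the accuracy of the calls was not tested. Genes named were the 20 most abundant, the top 5 of each list, every member of the lineage, signalling and similar lists, the 15 top transcription factors, the 5 top noncoding genes and the 5 largest gaps between libraries in each direction. The lists and members were chosen with earlier results of these data known. A member of the signalling lists is not reported here by name. No sequences are shown.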

Additional observations from a re-analysis of the deposited data

How the results depend on the processing

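The number of expressed genes, 8427, was between 7746 (at least 2 TPM) and 9148 (at least 0.5 TPM) over the other limits, with 8195 at 10 counts, 8118 at 1 CPM and 7876 at 1 FPKM, and it was 8764 without replicate 1 and 8812 without replicate 2. Of 100 lists with 5 or more members, at most 4 moved across 50% expressed under any of these. They were actins, tubulins, neuron, innexins, integrins, nuclear receptors, ecdysone response and PGRPs. Crossing 50% cannot show a change in lists far from it. By a fixed limit on the ratio of counts, the number of expressed members moved in 10 (at 1 FPKM) to 15 (at 1 CPM) of 107 lists. It moved in 2 lists without replicate 1 and in 6 without replicate 2. The 10 genes with the most counts held 7.76% of counts, and 7.56% to 7.96% in single libraries. The 10 genes of highest TPM, ranked separately, held 10.4% of TPM. Pearson's r between the libraries was 0.959 with a pseudocount of 0.1 and 0.993 over expressed genes only. The share of genes expressed on the 6 arms was 47.9% for all genes, 34.9% at 10 TPM and 55.7% for protein-coding genes only. Chromosome 4 was highest and 2L lowest each time, with the histone repeats always counted in 2L. TPM rescaled over protein-coding genes raised list medians by at most 3.16%. Shares without mitochondrial genome mRNAs and promoter motifs by level were not run. No paired analysis was possible because a single group was described. With 2 libraries the spread of any gene is poorly known, levels under about 0.33 TPM could not be told from 0 for a typical gene, and copies that share reads have uncertain levels.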

Other observations

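Cell surface and secreted families that the report does not describe were also divided. Of 34 tetraspanins, 15 (44.1%) were expressed, against 55.6% of all protein-coding genes. They were led by Tsp42Ee (152 and 144 TPM) and Tsp42Ef (86.2 and 79.0 TPM). Of 27 serpins, which inhibit serine proteases, 11 (40.7%) were, led by Spn88Ea (153 and 129 TPM) and Spn27A (148 and 129 TPM). Spn27A is known as an inhibitor of melanization. Of 6 integrin genes, the beta subunit mys had 282 and 288 TPM. The alpha subunit mew had 4.75 and 4.34 TPM, if 1.95 and 1.87 TPM, ItgaPS5 1.3 and 0.64 TPM and ItgaPS4 0.68 and 0.61 TPM, and a further alpha subunit was not analysed here. Of 8 innexins, which form gap junctions, Inx2 had 81.8 and 81.4 TPM and the germline form zpg 15.1 and 15.8 TPM. Of 27 neuropeptide genes, 4 passed, with amn at 12.3 and 12.8 TPM, and of 10 nicotinic receptor subunits 3 passed, of which nAChRbeta3 (16.4 and 8.38 TPM) lies wholly within exons of Ets21C.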
